A study of Drosophila melanogaster with 6 samples.

Results

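The crystal cell genes described here are 7 of the 17807 genes measured in RNA-seq libraries of whole lymph glands from Drosophila melanogaster larvae. They were chosen by gene family and known role, with earlier results of these data known, and each was found by its FlyBase ID. They comprise the prophenoloxidase genes PPO1 and PPO2, the Runx transcription factor gene lz (lozenge), the genes of its possible partners Bgb (Big brother) and Bro (Brother), and the zinc-finger transcription factor genes peb (pebbled, also called hindsight) and klu (klumpfuss). All 6 libraries came from wild-type larvae in the third instar, on a background that the labels give as BL-30140 crossed to w1118, raised at 25 °C on semi-defined medium. The sample titles end in GG or CB, with 3 libraries each, called set A and set B here. What these 2 suffixes stand for is not stated in the titles. The files hold no mutant or treated group, so the data describe the level of each gene in the wild-type gland, how it varied between libraries, and whether it differed between the sets.

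Blood cells (hemocytes) of the larva form in the lymph gland, and the crystal cell is one of the mature types it makes. Crystal cells store prophenoloxidases, copper enzymes that are cleaved to active phenoloxidases at wounds and oxidise tyrosine-derived phenols on the way to melanin. A hemocyte progenitor becomes a crystal cell when Notch, activated by its ligand Serrate, switches on lz, and Lozenge then acts with the GATA factor Serpent on crystal cell genes. Runx proteins bind DNA through the Runt domain, and a CBF beta protein, in flies Brother or Big brother, binds that domain and strengthens its hold on DNA.

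PPO1 (FBgn0283437) lies on chromosome arm 2R at 17887220 to 17889973 and PPO2 (FBgn0033367) on 2R at 9042261 to 9044709, in the coordinates of Ensembl release 115 (BDGP6.54), counted from 1. The transcription factor genes lie on X, at 9284649 to 9303636 for lz (FBgn0002576) and at 4617564 to 4627206 for peb (FBgn0003053), and on 3L at 10981171 to 11009188 for klu (FBgn0013469). Bgb (FBgn0013753) at 1639711 to 1640952 and Bro (FBgn0013755) at 1647869 to 1648612 are single-exon genes close to each other on 3L. All 7 genes are protein coding. No exon of the 7 genes overlaps an exon of another gene. PPO1 lies within an intron of Elk, on the opposite strand, and counting is not stated to use strand. The prophenoloxidases are related in sequence, but the posterior SD of their counts was at most 0.69 reads, so almost no reads were split between genes.

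The libraries held between 18689689 and 26003822 expected counts. Each library had its own content of tissues that lie near the gland, and none was free of them. The summed level of the 6 ring gland markers (phm, dib, sad, nvd, spok and sro, enzymes of ecdysone synthesis) was 3053 TPM (the deposited level, scaled for length and depth) in set A replicate 1 and 2869 TPM in set B replicate 2, against 986 to 1773 TPM in the other libraries. Set B replicate 1 had the highest summed level of 5 neural and glial markers, at 24.8 TPM against 1.56 to 4.62 TPM. The fat body sum was highest in set A replicate 3, the salivary gland sum in set B replicate 2, and the muscle sum in set B replicate 3. The sums were 80.5 to 165 TPM for the 4 heart markers and 0.76 to 5.40 TPM for the 2 tracheal markers. Nearly all of the heart sum was Hand, at 78.8 to 160 TPM, while tin, svp and prc were at 0.02 to 4.18 TPM. The heart sum thus rests on a single gene. Markers of all hemocytes varied little, with a sum of 2163 to 2676 TPM for He, srp, Pvr and ush. The crystal cell markers PPO1, PPO2, lz and peb were each above 1 TPM in all 6 libraries.

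The prophenoloxidases were among the most abundant transcripts of the gland. PPO2, whose enzyme is held in the crystals of crystal cells, was at 5730, 9158 and 10170 TPM in replicates 1, 2 and 3 of set A, and at 7949, 5682 and 7177 TPM in those of set B. Its place among all genes ranged from 4th to 31st. PPO1, whose enzyme is released quickly after wounding, was at 3867, 6440 and 7052 TPM in set A and at 5654, 3942 and 5321 TPM in set B. It ranked from 12th to 82nd. For both genes the lowest pair of libraries was set A replicate 1 and set B replicate 2, the highest was set A replicate 3, and the ranges of the sets overlapped. The mean levels were 7644 ± 1817 TPM for PPO2 and 5379 ± 1293 TPM for PPO1 (SD, n = 6).

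Together these genes took 1.79% to 3.14% of all counts (2.44% ± 0.571, SD, n = 6). The 95% Wilson interval of the lowest share, in set A replicate 1, reached from 1.789% to 1.799%, and that of the highest, in set A replicate 3, was 3.13% to 3.15%. Such intervals cover counting error only, and they were far narrower than the spread between libraries. The coefficient of variation (SD over mean) was 23.8% for PPO2 and 24.0% for PPO1. The median over the 7371 genes at 1 TPM or more in all libraries was 10.1%, and 84.2% and 84.5% of them varied less than PPO2 and PPO1. Among the 144 genes with a mean of at least 1000 TPM the median was 4.89%. In bulk tissue, fewer crystal cells and less of the transcript per crystal cell cannot be told apart.

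**Figure D1:**
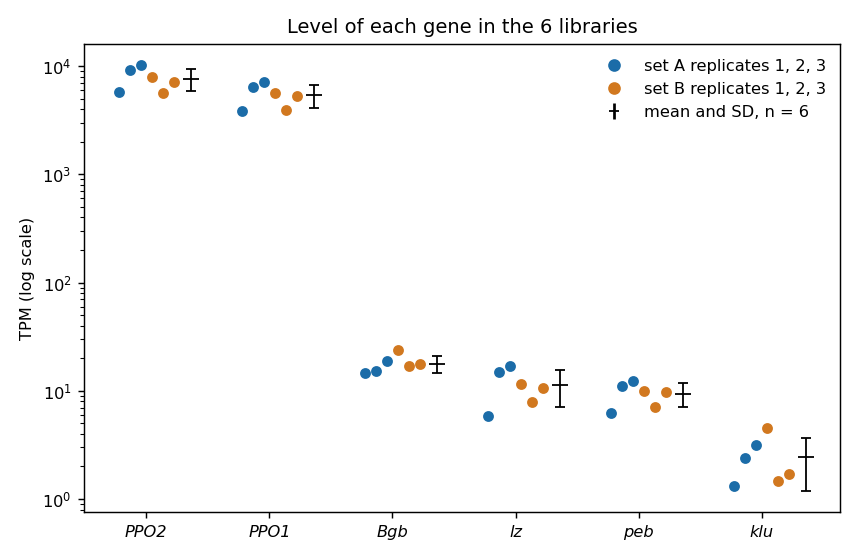
TPM of 6 of the genes in each library, on a log axis, with the replicates of each set in order from left to right and the mean and SD over all 6 libraries in black. PPO2 and PPO1 lie between 3867 and 10170 TPM, while the transcription factor genes and Bgb lie between 1.32 and 23.6 TPM. Bro is not drawn because it is listed at 0 in 5 libraries.

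The balance between the prophenoloxidases was nearly fixed while their levels were not. The ratio of PPO2 to PPO1 was 1.48, 1.42 and 1.44 in replicates 1, 2 and 3 of set A and 1.41, 1.44 and 1.35 in those of set B. PPO2 was thus the higher gene in 6 of 6 libraries, by 1.42 ± 0.0445 times (SD, n = 6), with a coefficient of variation of 3.13%. The mean log2 ratio was 0.51 ± 0.046, and a two-sided exact sign-flip permutation test gave p = 0.03125 (n = 6), the smallest that this test allows. TPM is corrected for length, and the annotated transcripts are close in length, with 2280 nt for PPO2 and 2338 nt for PPO1. Both genes ranged over the libraries by about the same factor, 1.79-fold for PPO2 and 1.82-fold for PPO1, against 1.10-fold for their ratio.

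**Figure D2:**
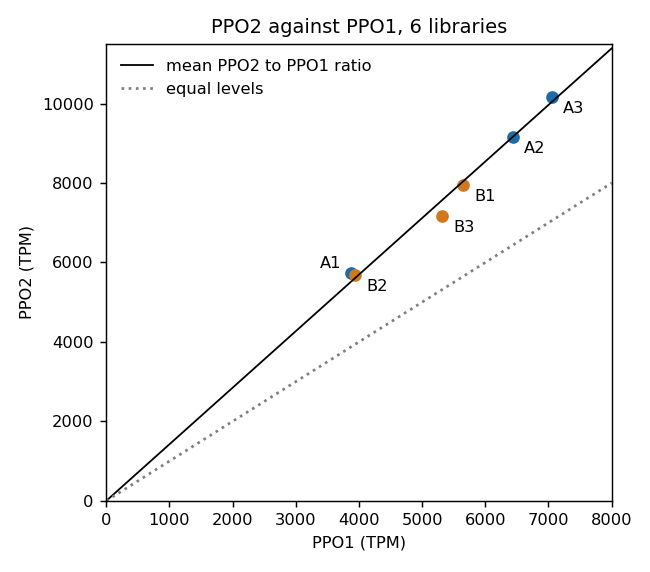
PPO2 against PPO1 in TPM, with a point for each library (blue for set A, orange for set B), a solid line at the mean ratio of 1.42 and a dotted line at equal levels. All 6 points lie close to the solid line, although the levels differ 1.82-fold for PPO1.

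The genes that encode the crystal cell transcription factors were far less abundant. The selector gene of the lineage, lz, was at 5.83, 15.03 and 17.0 TPM in replicates 1, 2 and 3 of set A and at 11.6, 7.92 and 10.5 TPM in set B, from 419 to 988 counts per library. Set A held both the lowest and the highest library, so the set B values lay inside its range. The mean was 11.3 ± 4.20 TPM (SD, n = 6), and the spread was wider than for the prophenoloxidases, with a coefficient of variation of 37.1% and a 2.91-fold range. Set beside PPO2, there were 1.44 ± 0.234 lz transcripts per 1000 PPO2 transcripts (SD, n = 6). This ratio was 1.02 in set A replicate 1 and 1.39 to 1.67 in the other libraries.

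The gene peb encodes Hindsight, which acts after Lozenge in maturing crystal cells and is also used in other tissues such as the eye and trachea. It was at 6.26, 11.1 and 12.2 TPM in set A and at 10.1, 7.07 and 9.69 TPM in set B, in the order of replicates. The tracheal markers were low, with trh at 0.03 to 1.01 TPM and btl at 0.73 to 4.39 TPM. Their sums were highest in set A replicate 1 and set B replicate 2, at 5.40 and 5.17 TPM. These libraries were the lowest in peb and the highest in ring gland markers. The part of trachea in the peb level was not tested. By peb level, the order of the libraries was the same as for lz and PPO1. The mean was 9.41 ± 2.32 TPM (SD, n = 6), with a coefficient of variation of 24.6%, close to those of PPO1 and PPO2. Against PPO2, peb was the steadiest of the transcription factor genes, at 1.23 ± 0.0845 transcripts per 1000, a coefficient of variation of 6.88%.

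The gene klu, which encodes a zinc-finger factor also known from neural progenitors, behaved differently in a single library. It was at 1.32, 2.41 and 3.16 TPM in set A and at 4.55, 1.48 and 1.70 TPM in set B. The highest library was set B replicate 1, with 339 counts and an exact Poisson 95% interval of 304 to 377, against 112 to 239 counts elsewhere. Per 1000 PPO2 transcripts, klu was at 0.572 in that library and at 0.230 to 0.311 in the other libraries. Set B replicate 1 was also the library with the highest neural and glial markers, with all 5 (elav, nSyb, brp, repo and Syt1) highest there. Their part in the klu level was not tested. The mean of klu was 2.44 ± 1.24 TPM (SD, n = 6), and its coefficient of variation of 50.9% exceeded that of 96.7% of detected genes.

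RSEM gives each gene a mean transcript length weighted by isoform abundance, and where a gene has 2 transcripts of different length this gives their shares. The longer lz transcript, of 3468 nt, has 6 exons, and the shorter, of 3105 nt, lacks exon 5 (X at 9295277 to 9295639, 363 nt). The shorter form made up 7.21%, 14.4% and 0.215% of lz transcripts in replicates 1, 2 and 3 of set A and 26.6%, 16.5% and 0% in set B. Most lz RNA was thus assigned to the form with exon 5 in every library, and the share of the other form varied widely (10.8% ± 10.4, SD, n = 6). For peb, the form of 6344 nt made up 13.5% to 26.7% (18.9% ± 4.65, SD, n = 6), and the form of 7441 nt, with the same coding length of 5682 nt, made up the rest. The files give no error for these shares. The 4 klu transcripts, and the 2 Bgb transcripts of equal length, cannot be separated in this way.

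Of the CBF beta genes, only Bgb was above the level that a few reads give. Bgb was at 14.5, 15.4 and 19.0 TPM in set A and at 23.6, 16.9 and 17.8 TPM in set B, with 296 to 434 counts per library. Its highest library was set B replicate 1, as for klu. The mean was 17.9 ± 3.25 TPM (SD, n = 6), and the coefficient of variation of 18.2% was the smallest among the 7 genes. Bro had 1 count in set B replicate 1 and 0 in each of the other libraries. A count of 0 allows up to 3 counts, which corresponds to 0.231 to 0.320 TPM of Bro in those 5 libraries, so Bgb was at least 52.8-fold to at least 74.2-fold higher there. In set B replicate 1 the ratio from counts was 231, with an exact interval of 41.2 to 9144 that covers counting error only. The annotated Bro transcript is 744 nt long and that of Bgb 1242 nt, which TPM corrects for.

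Bgb transcripts outnumbered those of lz in 6 of 6 libraries. The ratio of lz to Bgb was 0.401, 0.979 and 0.892 in set A and 0.492, 0.469 and 0.591 in set B. The other Runx genes of the fly were below 1 TPM, except run in set B replicate 1. RunxB was at 0.12 to 0.27 TPM from 8 to 19 counts, RunxA had 0 to 4 counts, and run had 52 counts (1.42 TPM) in set B replicate 1 and 0 to 2 elsewhere. In order of mean level the genes were PPO2, PPO1, Bgb, lz, peb, klu and Bro. The ranges over libraries overlapped for PPO2 and PPO1, for Bgb and lz, and for lz and peb. Within libraries, lz was above peb in 5 of 6. The ranges of peb and klu, and of klu and Bro, did not overlap.

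PPO1, PPO2, lz and peb went up and down together over the libraries. The correlation of log2(TPM + 1) was computed for the 15 pairs of the 6 genes other than Bro. Pearson r lay between 0.967 and 0.992 for the 6 pairs among these 4 genes, with exact permutation p between 0.00139 and 0.00556 and Benjamini-Hochberg p over the 15 pairs between 0.00694 and 0.0139 (n = 6 libraries). For PPO1 and PPO2, r was 0.992 and Spearman's rho 0.943, with exact permutation p of 0.00278 and 0.0167. For lz and PPO2, r was 0.967 and rho 0.943, with exact permutation p of 0.00556 and 0.0167. For lz and peb, r was 0.984 and rho 1, with exact permutation p of 0.00139 and 0.00278. Without the pair of libraries farthest from the median of the first gene, r of the 6 pairs was 0.954 to 0.998. A set holds 3 libraries, too few for a correlation within it, but with set means removed r was 0.977 to 0.998. The number of pairs called, 6 of 15, was 3 without set A replicate 3 and 0 without set B replicate 1, where r of these 6 pairs was 0.951 to 0.991 and 0.967 to 0.992.

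Neither klu nor Bgb passed the test against any of the 4 genes. For klu, r was 0.687 to 0.718, with exact permutation p between 0.117 and 0.135 (n = 6). Without set B replicate 1, r of klu with the 4 genes was 0.926 to 0.971, and the Benjamini-Hochberg exact permutation p of all 4 was 0.05 (n = 5). For Bgb, r was 0.368 to 0.470, with exact permutation p between 0.349 and 0.496 (n = 6). The pair of klu and Bgb had r of 0.836 and an exact permutation p of 0.0347, which was 0.0744 after adjustment over the 15 pairs (n = 6). With set means removed, r of this pair was 0.953. No p is given there, since values centred within each set cannot be exchanged freely between sets. Without set A replicate 2, r was 0.936 with an adjusted exact permutation p of 0.03125 (n = 5), which passed. Without set A replicate 3 and set B replicate 1 together, r was 0.0102, and without set B replicate 1 alone it was 0.558 with an adjusted exact permutation p of 0.385 (n = 5).

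**Figure D3:**
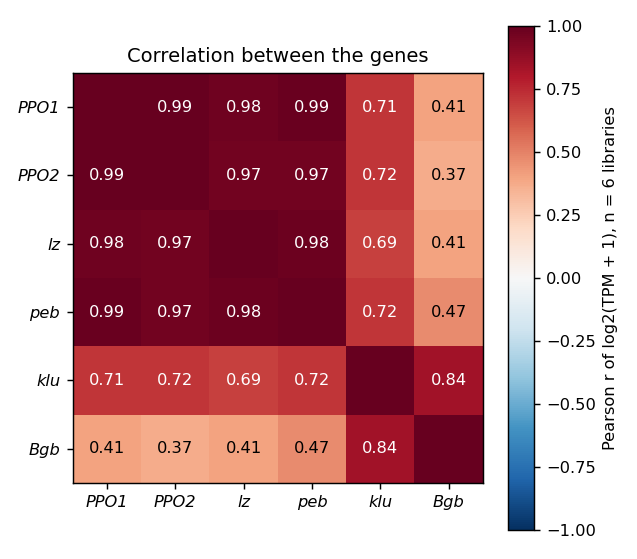
Pearson r of log2(TPM + 1) over the 6 libraries for each pair of genes, with blue for negative and red for positive values. PPO1, PPO2, lz and peb form a block with r of 0.967 to 0.992, and Bgb has the lowest values with these genes, 0.368 to 0.470.

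The 4 genes followed the ring gland markers in reverse. In rising order of the ring gland sum came set A replicates 3 and 2, then replicates 1, 3 and 2 of set B, and last set A replicate 1. In the same order PPO1, lz and peb were each lower in every next library, and PPO2 was too except for the last step. All 6 ring gland markers had negative r with PPO2, from -0.999 for spok to -0.925 for nvd, and spok had the lowest r of all 7370 other detected genes. The hemocyte marker He stayed between 1808 and 2268 TPM. PPO2 per He transcript was lowest in set A replicate 1 and set B replicate 2, at 2.87 and 3.14 against 3.62 to 4.64. He and the ring gland markers dib, sad and sro have exons that overlap a gene on the opposite strand. Relative to the 4 hemocyte markers, r among PPO1, PPO2, lz and peb was 0.967 to 0.993. Without the pair of libraries highest in ring gland markers, it was 0.988 to 0.998, with an exact permutation p of 0.0417 and 0.104 after adjustment (n = 4). The part of ring gland tissue in the levels was not tested.

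**Figure D4:**
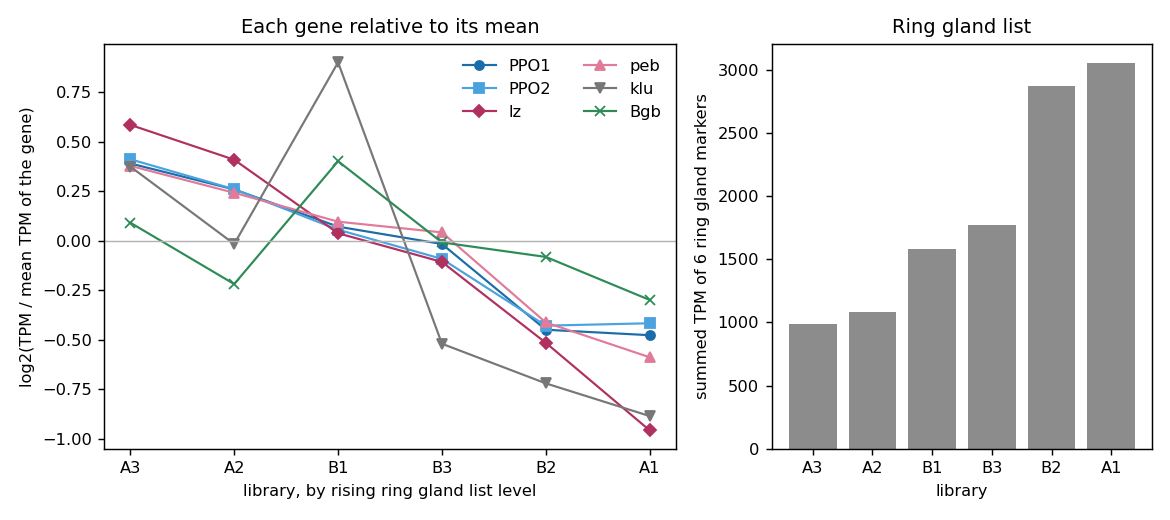
Left, log2 of each gene's TPM over its own mean, with the libraries ordered by rising ring gland level. Right, the summed TPM of the 6 ring gland markers in the same order, from 986 in set A replicate 3 to 3053 in set A replicate 1. PPO1, PPO2, lz and peb decline across the order, while klu and Bgb are highest in set B replicate 1.

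Likeness to the members was then described over all 7371 detected genes, with no test, since 6 libraries give many high values. An r of at least 0.9 with PPO2 was reached by 357 of 7370 genes (4.84%), with PPO1 by 499 (6.77%) and with lz by 371 (5.03%). PPO1 stood 8th in likeness to PPO2, peb 65th, lz 67th, klu 1403rd and Bgb 2657th. The 5 genes most like PPO2 were corolla, pug, msl-2, ftz-f1 and CG10467, with r from 0.993 to 0.998. For PPO1 they were corolla, alc, the malic enzyme gene Men, the scavenger receptor gene Sr-CI and the copper chaperone gene Atox1, with r from 0.994 to 0.995. For lz they were Usp32, Skp2, Atox1, lncRNA:roX2, an RNA of male dosage compensation, and CG6733, with r from 0.987 to 0.990. Of these genes, alc and Skp2 have exons that overlap a gene on the opposite strand, and pug, msl-2, ftz-f1 and CG10467 one on the same strand. Both msl-2, the dosage compensation gene translated in males, and roX2 are tied to sex, and they ranged from 11.9 to 25.8 TPM and from 16.4 to 87.6 TPM. Both were lowest in set A replicate 1 and set B replicate 2. The part of the mix of male and female larvae in the levels was not tested.

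A list of 7 other genes was drawn up as crystal cell genes from general knowledge, with no source checked here, so its membership is uncertain. It was also chosen with earlier results of these data known, so its likeness to PPO2 is a description and not independent support. Of these 7, 5 (CG10467, Men, CG5828, CG10469 and CG17109) had r of at least 0.9 with PPO2, against 4.84% of all 7370 genes. The median r was 0.969, against -0.0134 over all 7370 genes. All 7 were above 1 TPM in every library. Men, whose enzyme makes NADPH from malate, was at 670.2, 1243 and 1330 TPM in set A and at 1082, 675 and 923 TPM in set B. CG17109 ranged from 108 to 463 TPM, a wider range than that of the prophenoloxidases, and fok, with r of 0.872, from 674 to 1677 TPM. CG10467 and CG10469 share exon sequence on the same strand, so their counts are not independent. CG7860 went the other way, with r of -0.794 and its highest values, 159 and 149 TPM, in set A replicate 1 and set B replicate 2.

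Among the genes that act on lz expression, the Notch ligand gene Ser was the most like PPO2, with r of 0.874. It was at 3.86, 9.52 and 11.1 TPM in set A and at 7.49, 6.62 and 7.73 TPM in set B, and was lowest in set A replicate 1, as lz was. The receptor gene N ranged from 16.7 to 23.8 TPM, with r of 0.688. The GATA factor gene srp and its partner gene ush had r of -0.301 and 0.268 and levels of 148 to 215 and 49.8 to 61.5 TPM. Su(H), mam, yki, sd and sima lay between -0.314 and 0.483. With lz itself, r was 0.966 for Ser, 0.822 for N, and -0.453 to 0.474 for srp, ush and these genes. An r of at least 0.9 with lz was reached by 5.03% of all 7370 genes. The remaining genes of this list were below 1 TPM in several libraries. The ligand gene Dl ranged from 0.01 to 2.54 TPM, and the glial and hemocyte factor genes gcm and gcm2 had 60 and 24 counts in set B replicate 1 and 0 in the others.

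Of the 8 genes of the melanization cascade, 4 were above 1 TPM in every library, and none had a positive r with PPO2. The protease gene MP1 was at 135 to 193 TPM (r of -0.570), the protease gene modSP at 5.41 to 11.3 TPM (r of -0.938), and the serpin genes Spn27A, whose protein inhibits melanization, and Spn28Dc at 293 to 421 and 17.6 to 22.7 TPM (r of -0.749 and -0.0491). The protease genes Sp7 and Hayan and the serpin gene Spn77Ba were lower, at 0.54 to 5.31 TPM. PPO3, the prophenoloxidase gene of lamellocytes, was at 0.57 to 2.77 TPM. MP1, Hayan and Spn77Ba have exons that overlap a gene on the opposite strand.

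Among the genes of tyrosine, catecholamine and copper supply, the copper importer gene Ctr1A was at 156 to 190 TPM with r of 0.916, and the copper pump gene ATP7 at 18.3 to 22.6 TPM with r of 0.0819. The gene yellow-f, of the dopachrome conversion step, was at 53.5 to 161 TPM, highest in set A replicate 1 and set B replicate 2, with r of -0.886. Hn, ple, Ddc and yellow-f2, which act on phenylalanine, tyrosine, dopa and dopachrome, were below 1 TPM in most libraries. The exceptions were ple at 7.04 TPM in set B replicate 2 and Hn at 2.20 TPM in set A replicate 3, the libraries highest in salivary gland and in fat body markers. Ctr1B was at 0.80 to 2.19 TPM, and Ctr1C was listed at 0 in all libraries. Ddc, yellow-f, Ctr1B and ATP7 have exons that overlap a gene on the opposite strand.

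Markers of the other hemocytes divided in their likeness to PPO2. Of the 8 plasmatocyte genes, 5 (Sr-CI, Col4a1, vkg, Hml and Pxn) had r of at least 0.9, while NimC1, eater and crq had r of 0.0982, -0.497 and -0.854. The prohemocyte markers Tep4, Ance, dome and shg had negative r and et had 0.851. The lamellocyte marker atilla was at 1.12 to 8.20 TPM, with r of -0.0580.

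**Figure D5:**
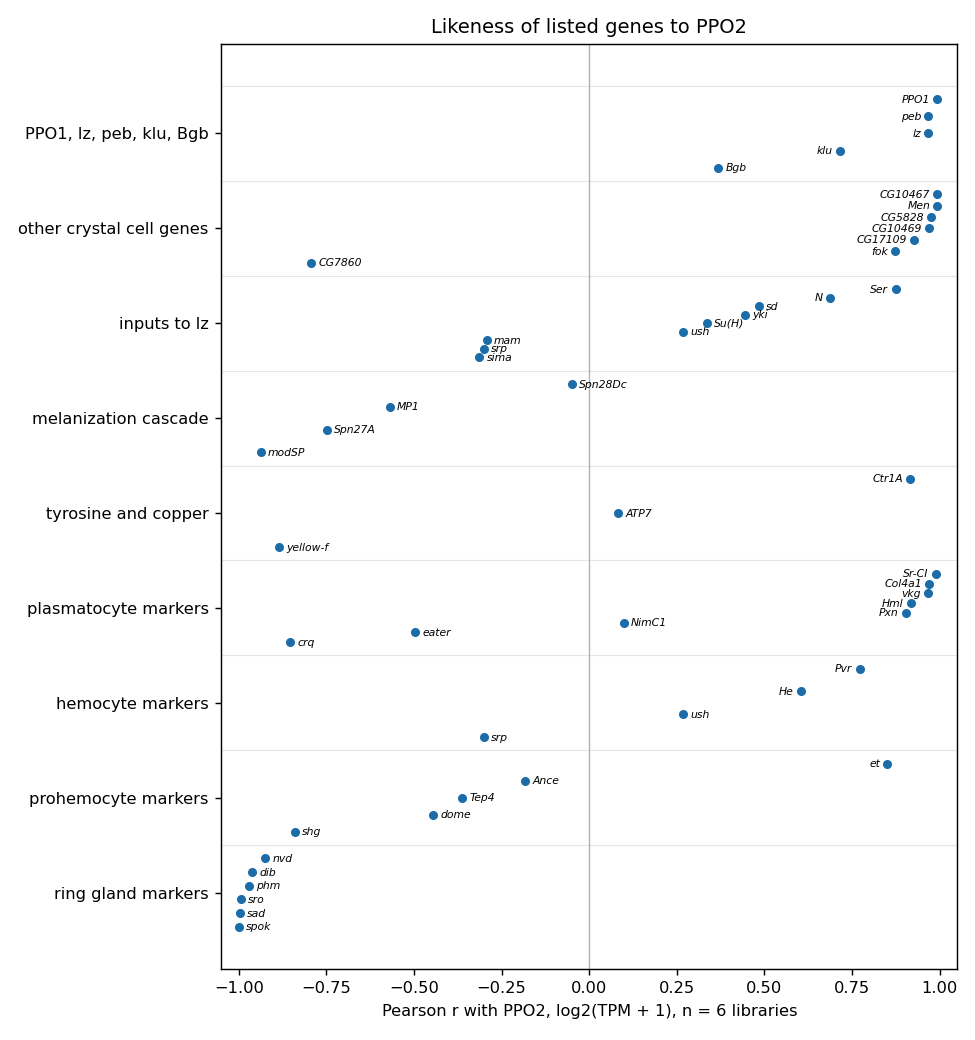
Pearson r with PPO2 of the log2(TPM + 1) values over the 6 libraries, for the listed genes at 1 TPM or more in all libraries. PPO1, lz and peb and 5 of the 7 other genes listed for crystal cells lie above 0.9. So do 5 of the 8 plasmatocyte markers and Ctr1A. The 6 ring gland markers lie between -0.999 and -0.925.

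The sets gave the only contrast that the labels allow, and any batch that goes with them cannot be told apart from it. No member passed the test between the sets. With edgeR's quasi-likelihood test, 0 of the 6 members tested had an adjusted p under 0.05, against 0 of 8491 genes (0%), and the smallest adjusted p over all genes was 0.9997. An unadjusted p under 0.05 was reached by 0 of 6 members, against 353 genes (4.16%), and the libraries of the sets did not overlap for 0 of 6 members, against 628 genes (7.40%). DESeq2 called 22 of 8434 genes (0.261%), none of them a member. Bro did not pass the filter on low counts.

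The members had the following log2 changes, set B minus set A, all with an edgeR adjusted p of 0.9997. PPO1 was at -0.24 (SE 0.26), PPO2 at -0.29 (SE 0.25), lz at -0.37 (SE 0.41) and peb at -0.18 (SE 0.29), while klu was at 0.15 (SE 0.52) and Bgb at 0.23 (SE 0.16). The mean level of PPO2 was 8353 ± 2327 TPM in set A and 6936 ± 1153 TPM in set B, and that of lz was 12.6 ± 5.95 and 10.02 ± 1.90 TPM (SD, n = 3 each). These values depended on single libraries. With each library left out in turn, PPO1 ranged from -0.48 to -0.095, PPO2 from -0.51 to -0.15, lz from -0.72 to -0.12, peb from -0.43 to -0.025 and Bgb from 0.085 to 0.33. The lowest values of PPO1, PPO2, lz and peb came without set A replicate 1, where the unadjusted edgeR p was 0.0383, 0.0207, 0.00768 and 0.0543 and the adjusted p of each was 0.607. The value of klu was -0.48 without set B replicate 1. The median log2 change was -0.21 over the 6 members, -0.20 over the 7 other genes listed for crystal cells, and -0.0045 over all 8491 genes. All 7 were lower in set B, as were 4379 of the 8491, but none had an unadjusted edgeR p under 0.05 (0.299 to 0.763). CG7860 was at -0.066 and turned to 0.14 without set A replicate 1, 0.0097 without set B replicate 1 and 0.016 without set B replicate 3. The lists of genes acting on lz, of the melanization cascade and of tyrosine and copper supply had medians of -0.043, 0.072 and -0.15, and RunxB, the other Runx gene tested, was at 0.47. Over the 5 pathway lists, with 1, 10, 7, 8 and 4 genes tested, 1 gene had an unadjusted edgeR p under 0.05. Among all 8491 genes the share was 4.16%. The gene was the copper pump gene ATP7, at an unadjusted edgeR p of 0.0269. Its log2 change was -0.19 (SE 0.064) and its edgeR adjusted p was 0.9997. In CPM the set B libraries of ATP7, and those of ush, were all below those of set A. Such a lack of overlap was found for 7.40% of all genes. In TPM the sets overlapped for ATP7, at 19.87 in set B replicate 2 against 19.55 in set A replicate 2.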

How the data were processed

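Polyadenylated RNA from whole lymph glands was sequenced in 6 stranded libraries, from 200 ng of RNA each. The submitters' processing notes name CASAVA 1.8.2, Trimmomatic 0.35, STAR 2.7.1a, RSEM 1.2.28 and build BDGP6, while settings, annotation release and use of strand are not given in the sources used here. Per the file headers, the deposited values are RSEM expected counts (estimated reads per gene, not normalized), TPM and FPKM (scaled by effective length and depth), posterior SDs and lengths. RSEM's interval bounds on the TPM scale, a deposited signal of assignment error, enter no value given here. Positions and exons come from Ensembl release 115. Labels give separate libraries but not separate cultures, so p-values measure the spread between libraries. Every pair of libraries differed by more than counting error (smallest chi-square per degree of freedom 20.1, 15 pairs).

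Levels were summarised from TPM as mean ± SD. Sets were compared on expected counts rounded to whole numbers with edgeR 4.0.16 (default expression filter, TMM, quasi-likelihood test, Benjamini-Hochberg over all genes) in R 4.3.3. SEs came from the estimate and its F statistic. Alternatives used DESeq2 1.42.0, limma 3.58.1, other scalings, filters and pseudocounts, a replicate block and left-out libraries. Correlations used log2(TPM + 1) and all 720 orders, over 15 pairs, since Bro is at 0 in 5 libraries. Other work used Python 3.11.15, numpy 2.4.6, pandas 2.3.3, scipy 1.17.1 and matplotlib 3.10.9. Genes named are the members, the genes of 5 pathway and 11 marker lists, and the 5 genes most correlated with PPO2, PPO1 and lz. Members and lists were chosen with earlier results of these data known. Of the gene IDs, 17710 of 17807 matched a symbol by ID.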

Additional observations from a re-analysis of the deposited data

Results flagged for a closer look

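Among 72 values over the 6 libraries (levels, ratios, isoform shares and marker sums), 13 had a library whose gap to its neighbour, as a share of the range, exceeded Dixon's 95% critical value for 6 samples. Chance flags about 1 in 20 such groups, and the values are not independent. Set B replicate 1 stood apart for klu per 1000 PPO2 transcripts, at 0.572 against 0.230 to 0.311, for Bgb per 1000 He transcripts, at 12.9 against 7.27 to 9.34, and for Bro, at 0.1 TPM from 1 count. The same library stood apart for run at 1.42 TPM, gcm at 2 TPM, gcm2 at 0.65 TPM and the neural and glial marker sum at 24.8 TPM. Set B replicate 3 was low for Spn28Dc, at 17.6 TPM against 21.2 to 22.7, and high for the muscle sum, at 1494 TPM. Set A replicate 3 was high for Hn, at 2.20 TPM, and for the fat body sum, at 721 TPM. Set B replicate 2 was high for ple, at 7.04 TPM, and for the salivary gland sum, at 5319 TPM. PPO1, PPO2, lz, peb, klu and Bgb had no such library in their TPM.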

How the results depend on the processing

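With each library left out in turn, the mean was 7139 to 8037 TPM for PPO2 and 5045 to 5682 TPM for PPO1. That of lz was 10.2 to 12.4 TPM. Leaving out 1 library or a pair cannot move a mean by as much as its SD, so no stability is read from those runs. The number of genes called between sets was 22 with DESeq2 and 0 under each other setting, the replicate block included (0 called, and for the members no change of direction). For same-numbered libraries of the sets, r of the deviations from the set means was -0.178, -0.302 and 0.375. For differently numbered libraries it was -0.509 to 0.566. With means of 3 libraries per set, these values cannot settle whether the numbers pair the libraries. Leaving out each library in turn gave a log2 change of klu between -0.48 and 0.42, -0.16 without set A replicate 1. No other member changed direction. The mean log2 ratio of PPO2 to PPO1 was 0.497 to 0.524 when each library was left out, with an exact p of 0.0625, the smallest that 5 libraries allow. Without the pair of libraries highest in ring gland markers (chosen after seeing the data) it was 0.490, and 0 pairs of members were called, the design of 4 libraries being too small to pass. There, r of Bgb with PPO1, PPO2, lz and peb was -0.276, -0.224, -0.328 and -0.261. The number of called pairs was 0 to 7 when each library was left out. The ratio of Bgb to Bro from log values was not run, since Bro is at 0 in 5 libraries, and the promoter motif search was not run.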
